A study of Mus musculus with 6 samples.

Results

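MiR-9 is a brain microRNA whose hairpins give 2 mature products, miR-9-5p and miR-9-3p, and the reference annotation also names products of the opposite DNA strand, miR-9b. Values of mmu-miR-9-5p, mmu-miR-9-3p and mmu-miR-9b-3p (mmu for Mus musculus, dropped from here on) were taken from small RNA sequencing of mouse cortex by matching these 3 names exactly, out of 1182 names counted. The libraries came from adult male mice, 3 labelled fmr1 KO and 3 labelled fmr1 WT, with no treatment in either genotype. The product of Fmr1 is FMRP, which binds mRNAs and controls their translation in neurons. The deletion allele, strain background and exact age are not given in the labels used here, and only mature miRNAs were counted, so the Fmr1 transcript could not be used to check the genotypes.

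As background, a miRNA is cut from a hairpin precursor, and either arm can be loaded into an Argonaute protein, where bases 2 to 8 (the seed) pair with target mRNAs. In the nervous system miR-9-5p is known to restrain Rest, Nr2e1 and Hes1, genes that keep neural cells in an undifferentiated state. The other arm, miR-9-3p, is known to act on Rcor1, the gene of the REST partner CoREST, and with miR-124 on Actl6a, a chromatin-remodelling subunit of neural progenitors. REST itself is known to repress miR-9 genes.

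The mature sequences are shown first because the counts of the 3 names depend on how they relate to each other. Capitals mark the seed, and all sequences are those of RefSeq on GRCm38.p6, the assembly of mm10.
miR-9-5p: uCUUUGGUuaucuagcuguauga
miR-9-3p: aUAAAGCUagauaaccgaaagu
miR-9b-3p: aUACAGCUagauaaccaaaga
miR-9b-5p: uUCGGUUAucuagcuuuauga
The reverse complement of miR-9b-3p: ucuuugguuaucuagcuguau
Read in reverse complement, miR-9b-3p matched miR-9-5p at 21 of 21 positions, counted from the first base of miR-9-5p, and stopped 2 bases short of its 3′ end. In the direction in which it is named, miR-9b-3p resembled miR-9-3p instead, with 17 of 21 positions identical and the substitutions A4C, G17A, A20G and G21A (the miR-9-3p base first, positions from its 5′ end). The first of these lies in the seed. None of the seeds was shared with another miRNA name in the table that had a RefSeq mature sequence (970 names).

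MiR-9 is encoded by 3 genomic copies, and their hairpins are printed with both arms in capitals to show that the arms are the same while the loops are not.
Mir9-1: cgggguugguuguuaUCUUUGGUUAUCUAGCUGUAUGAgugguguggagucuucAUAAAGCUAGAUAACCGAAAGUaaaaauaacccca
Mir9-2: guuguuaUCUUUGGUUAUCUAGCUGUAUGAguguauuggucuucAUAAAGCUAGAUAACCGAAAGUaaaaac
Mir9-3: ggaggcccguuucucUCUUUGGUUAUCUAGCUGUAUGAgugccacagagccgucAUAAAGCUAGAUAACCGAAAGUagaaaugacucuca
Mir9-1 lies at chr3:88215598-88215686, Mir9-2 at chr13:83738814-83738885 and Mir9-3 at chr7:79505264-79505353, all on the plus strand. In GENCODE M21 each sits inside a long noncoding RNA gene of the same strand. Mir9-1 is in an intron of Gm3764 and Mir9-3 in an intron of Mir9-3hg. Mir9-2 lies within an exon of C130071C03Rik. RefSeq places miR-9b-3p on the minus strand of all 3 copies, for example at chr3:88215613-88215633 opposite miR-9-5p at chr3:88215613-88215635. Because the arms are identical, mature reads cannot be assigned to one of the 3 copies.

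In reads, miR-9-5p and miR-9b-3p were nearly one measurement. The KO libraries held 2685217, 3758713 and 2777015 reads of miR-9-5p, and the WT libraries 3173687, 2908883 and 3444788. Under miR-9b-3p the same libraries held 2675691, 3748082 and 2769941 reads in KO and 3164161, 2900859 and 3435036 in WT. The antisense name thus carried 99.65%, 99.72% and 99.75% of the miR-9-5p count in KO and 99.70%, 99.72% and 99.72% in WT. Neither genotype stood apart in this share. The reads missing from miR-9b-3p numbered between 7074 and 10631 per library.

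The pair on the other arm behaved differently. For miR-9-3p the counts were 12460, 12290 and 11774 reads in KO and 15312, 14203 and 14382 in WT. Its antisense name, miR-9b-5p, had 378, 355 and 270 reads in KO and 416, 382 and 340 in WT, which is between 2.29% and 3.03% of miR-9-3p in every library. The 2 names overlap by 19 bases, all complementary. In position, miR-9b-5p reaches 2 bases beyond the 5′ end of miR-9-3p and stops 3 bases before its 3′ end. Against miR-9-3p, which it resembles in sequence, miR-9b-3p had between 204 and 305 times as many reads. The level of miR-9b-3p therefore followed its complement miR-9-5p and not the arm it looks like.

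Such pairs were not limited to miR-9. Of 21 pairs of names on opposite strands that overlap by at least 15 bases and hold at least 200 reads together, 10 agreed within 3% in every library, among them miR-129-5p with miR-129b-3p and miR-24-3p with miR-3074-5p. The pair miR-5615-5p with miR-5615-3p pooled to 98.4% but fell outside this limit in single libraries. In the other 10 pairs the name with fewer reads had from 0.056% (miR-126b-5p of miR-126a-3p) to 27.0% (miR-129b-5p of miR-129-2-3p) of the reads of its partner. At the miR-9, miR-129 and miR-136 loci one arm belonged to the near-identical group and the other arm did not. Counts were equal for miR-142a-3p with miR-142b and for miR-3065-5p with miR-338-3p, and there the second name was treated as having fewer reads. The name with fewer reads lay inside the window of its partner in 6 of the 21 pairs, and 4 of these agreed within 3%. It reached beyond that window in the other 15 pairs, and 6 of these agreed within 3%. The sources used here do not say whether counting used strand, and why the arms differ was not tested.

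**Figure D1:**
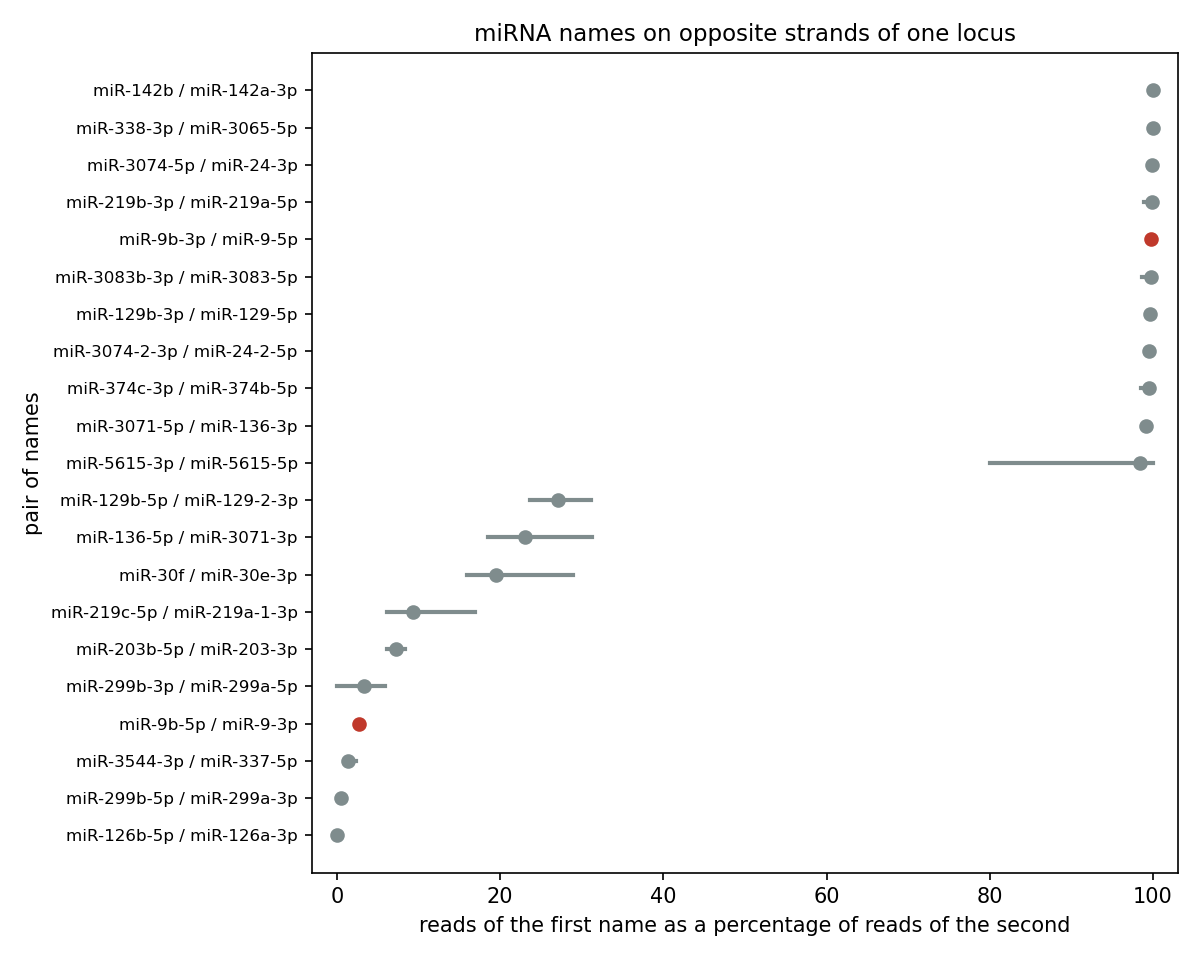
Reads of the less or equally counted name as a percentage of its partner (x axis) for 21 pairs of miRNA names on opposite strands of a locus (y axis). Points are pooled over 6 libraries, lines run from the lowest to the highest library, and both miR-9 pairs are in red. The miR-9-5p pair sits at 99.7% and the miR-9-3p pair at 2.66%.

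The double entry bears on how much of the cortical miRNA pool miR-9 appears to fill. With both names counted, miR-9-5p and miR-9b-3p together took 47.2% ± 6.45 of all counts in KO libraries and 43.5% ± 0.63 in WT libraries (mean ± SD of 3). With miR-9b-3p left out of both the numerator and the total, miR-9-5p plus miR-9-3p took 25.1%, 35.5% and 33.1% in KO and 27.3%, 28.3% and 28.1% in WT. That total still held the other near-identical pairs under both names, for example 1254966 reads of miR-129b-3p over all libraries. KO replicate 1 was under every WT library while KO replicates 2 and 3 were over them, so the groups overlap. Exact 95% binomial (Clopper-Pearson) intervals, which cover counting error alone, were narrow, for example 35.42% to 35.48% in KO replicate 2. The means were 31.2% ± 5.43 in KO cortex and 27.9% ± 0.512 in WT cortex (mean ± SD, n = 3 each), and the difference of 3.31 percentage points had an exact two-sided permutation p of 0.4 (adjusted p = 0.4 over 2 tests). The smallest p that 3 against 3 libraries allow is 0.1. The difference was 6.37 percentage points without KO replicate 1, 1.20 without KO replicate 2, and 1.88 with miR-9b-3p kept in the total. In every library miR-9-5p was the most counted name and miR-9b-3p the next, while miR-9-3p ranked between 54 and 62.

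Levels were then compared between genotypes as CPM (reads scaled to a common library size) with TMM factors, which correct library size for shifts in composition. For miR-9-5p the CPM were 183266, 316153 and 228914 in KO libraries and 208016, 214168 and 226567 in WT libraries. KO replicate 1 was below all WT libraries and KO replicates 2 and 3 were above them, so the groups overlapped. KO libraries averaged 242778 ± 67520 CPM, against 216250 ± 9449 CPM for WT libraries (SD, n = 3 each). The log2 fold change was 0.17 (SE 0.20, 95% interval -0.29 to 0.62) and did not pass the edgeR quasi-likelihood test (adjusted p = 0.85 over 541 tested miRNAs). Without KO replicate 2, the highest library, the direction turned (log2 fold change -0.10, edgeR adjusted p = 0.836).

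That library also had the lowest TMM factor, 0.827, against 1.09 and 1.08 in the other KO libraries and 0.966 to 1.03 in WT. Scaled by total counts alone, miR-9-5p reached 200071, 261305 and 248357 CPM in the KO libraries, against 214086, 219958 and 218960 CPM in the WT libraries. On this scale KO replicates 2 and 3 were again above all WT libraries and KO replicate 1 below them, with a log2 fold change of 0.12 (edgeR adjusted p = 0.943). The wide KO range was therefore present with and without composition scaling, although its size depended on it.

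The 3p arm varied less. CPM of miR-9-3p were 850, 1034 and 971 in KO and 1004, 1046 and 946 in WT, with means of 952 ± 93.1 for KO libraries and 998 ± 50.1 for WT libraries (SD, n = 3 each). KO replicate 1 was the lowest library, and the other KO values fell within the WT range. The log2 fold change was -0.07 (SE 0.15, 95% interval -0.41 to 0.27, edgeR adjusted p = 0.884), and without KO replicate 1 it was 0.02 (edgeR adjusted p = 0.963). For miR-9b-3p the values repeated those of miR-9-5p, with 182616, 315259 and 228331 CPM in KO libraries, 207392, 213577 and 225926 CPM in WT libraries and a log2 fold change of 0.17 (SE 0.20, edgeR adjusted p = 0.85). It is not separate evidence, and without KO replicate 2 it likewise turned to -0.10.

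**Figure D2:**
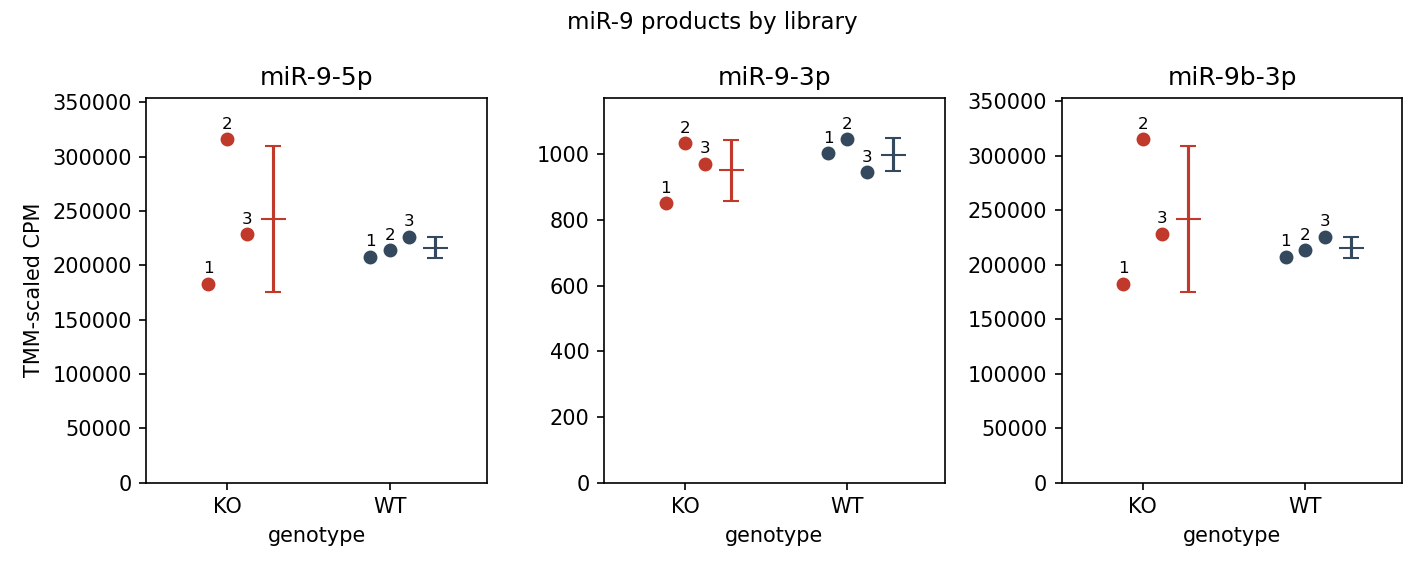
TMM-scaled CPM (y axes, each from 0) of miR-9-5p, miR-9-3p and miR-9b-3p in KO and WT libraries (x axes). Points are single libraries with their replicate number, and the bar beside them is the mean with SD (n = 3). KO libraries span 183266 to 316153 CPM for miR-9-5p while WT libraries span 208016 to 226567 CPM, and miR-9b-3p shows the same picture.

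None of the 3 names was called, where the background was 0% (0 of 541 miRNAs at an adjusted p below 0.05, edgeR). At an unadjusted p under 0.05 edgeR gave 35 of 541 miRNAs and limma-voom 34 of 541. DESeq2, run without the count filter, gave 40 of 1182 names. DESeq2 and limma-voom also made 0 adjusted calls. None of the 3 names had KO libraries wholly outside the WT range, against 15.7% of tested miRNAs (85 of 541). Without KO replicate 3 edgeR made 18 calls among 560 tested miRNAs, and none was a miR-9 name. At so small a share, the lack of a call among 3 names is not informative. The intervals leave room for miR-9-5p differences of up to 0.62 log2 units upward and 0.29 downward, so equal levels are not shown.

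The spread of miR-9-5p was wider in KO than in WT, with an SD of log2 CPM of 0.40 in KO and 0.063 in WT. Across all tested miRNAs the median SD was 0.338 in KO and 0.127 in WT, and 219 of 541 miRNAs had a larger KO SD than miR-9-5p. The KO SD exceeded the WT SD for 451 of 541 miRNAs. MiR-9-3p had SDs of 0.14 in KO and 0.073 in WT, and 466 of 541 miRNAs spread more than it did in KO.

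The ratio of the 2 arms within a library needs no scaling between libraries and asks whether their balance differed by genotype. Reads of miR-9-5p per read of miR-9-3p were 215, 306 and 236 in KO and 207, 205 and 240 in WT. KO replicate 2 was the highest, and the other KO values lay within the WT range. KO libraries had a mean ratio of 252 ± 47.4 and WT libraries one of 217 ± 19.4 (SD, n = 3 each). On the log2 scale, with 0.5 added to each count, the difference was 0.20 (SE 0.25, 95% interval -0.39 to 0.80) and did not pass limma over 144 hairpins with both arms tested (adjusted p = 0.85). The exact two-sided permutation p over the 6 libraries was 0.3 (adjusted p = 0.4 over 2 tests). Without KO replicate 2 the difference was 0.06 (limma adjusted p = 0.901).

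No hairpin passed this arm test (0% of 144, limma), and 16 had an unadjusted p under 0.05. The difference between genotypes was larger in absolute size than that of miR-9 in 87 of the hairpins. In the unevenness of its arms miR-9 ranked 17 of 144, and it ranked 11 when hairpins were ordered by excess of the 5p arm. These hairpins include 5 with an arm taken as the less counted name of a near-identical pair, miR-9b among them. In miR-338 that arm had the same count as its partner. Without these 5 hairpins, an alternative chosen after seeing the data, miR-9 ranked 16 and 11 of 139. The median hairpin had a 15.2-fold excess of one arm over the other. Among the most counted hairpins miR-30d was more uneven toward 5p, with 2879 ± 937 reads of 5p per 3p read in KO libraries and 3148 ± 422 in WT libraries (SD, n = 3 each). In miR-143, a mural-cell miRNA, it was the 3p arm that dominated.

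**Figure D3:**
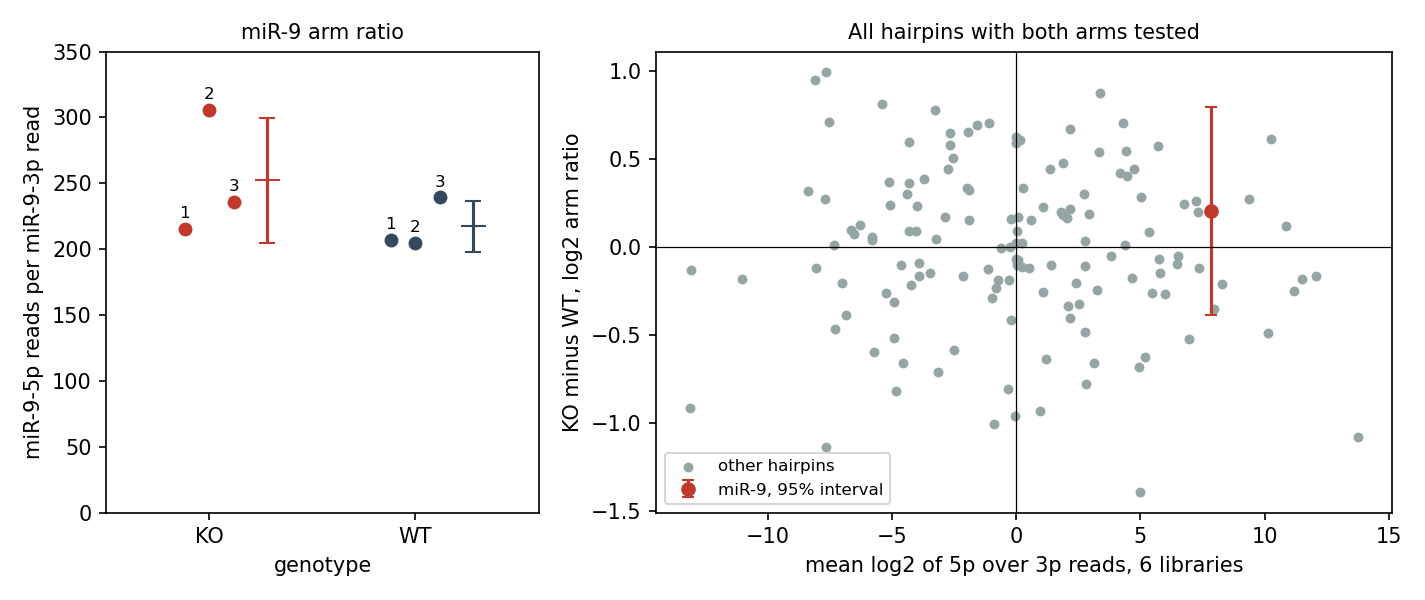
Left, miR-9-5p reads per miR-9-3p read (y axis) in single KO and WT libraries, numbered by replicate, with mean and SD (n = 3). Right, KO minus WT difference in log2 arm ratio (y axis) against the mean log2 of 5p over 3p reads (x axis) for 144 hairpins, with miR-9 in red and its 95% interval. The interval of miR-9, from -0.39 to 0.80, spans 0.

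Other miRNAs of the neuronal programme gave the context. In the neuron-enriched list all 12 members were tested, 7 with higher and 5 with lower values in KO, with 0 calls and a median log2 fold change of 0.03. Without KO replicate 3 only 2 of the 12 had higher values. Over all 541 tested miRNAs 284 had higher and 257 lower values, with a median of 0.03. A further list shares miR-124-3p, miR-132-3p, miR-137-3p and miR-212-3p with the neuron-enriched list, so the tallies are not independent. Among these miRNAs, which share with miR-9 a known repression by REST or work beside it in neurons, 4 of 7 had higher and 3 lower values, with 0 calls. In that list miR-124-3p, the partner of miR-9-3p in the switch of chromatin subunits, averaged 1590 ± 459 CPM in KO libraries, against 1745 ± 118 CPM in WT libraries (log2 fold change -0.13, SE 0.21). The activity-induced miR-132-5p averaged 2685 ± 107 CPM in KO libraries, against 2314 ± 28.4 CPM in WT libraries (log2 fold change 0.21, SE 0.13). In the same cluster the log2 fold change of miR-132-3p was 0.03 (SE 0.21), that of miR-212-3p 0.25 (SE 0.32) and that of miR-212-5p -0.40 (SE 0.33). None of these 5 miRNAs passed the edgeR test.

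All 12 neuron-enriched miRNAs were present, which does not tell cortex from other brain tissue, and their summed level was 135655, 146514 and 126451 CPM in KO libraries and 138742, 140040 and 151787 CPM in WT libraries. In bulk tissue fewer cells of a type and less RNA per cell cannot be told apart. Summed counts ranged from 11182888 to 14385332 in KO and from 13225790 to 15733876 in WT. Markers of epithelium and olfactory neurons (5 miRNAs of the miR-200 family, 5 of 5 tested and none at 0) summed to 15.7, 904 and 970 CPM in KO libraries and 154, 83.9 and 290 CPM in WT libraries. KO replicate 1, the library with least miR-9-5p, was lowest in this list, and KO replicates 2 and 3 were highest. WT replicate 3 was the highest WT library in both this list and miR-9-5p. The order differed from that of miR-9-5p only in having KO replicate 3 above KO replicate 2 and WT replicate 1 above WT replicate 2. Choroid plexus and multiciliated markers (6 miRNAs, 4 tested, none at 0) summed to 1018, 1033 and 2110 CPM in KO libraries. In WT libraries they summed to between 969 and 1044 CPM, and their order likewise differed from that of miR-9-5p. Values were higher in KO for 5 of 5 tested miR-200 miRNAs (median log2 fold change 1.95). The same held for 4 of 4 tested choroid plexus and multiciliated miRNAs (median 0.41). Values were also higher for 1 of 5 tested oligodendrocyte miRNAs, 4 of 4 of microglia and leukocytes and 3 of 4 erythroid miRNAs. Among endothelial and mural miRNAs 4 of 4 were higher, and among Hox-cluster miRNAs 2 of 2. Each of these lists had 0 calls. The part of these lists in the miR-9 values was not tested.

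Likeness of pattern was measured as the root mean square difference of centred log2(CPM + 1) over the 6 libraries. The name nearest to miR-9-5p was miR-9b-3p (difference 0.00045), followed by miR-3068-5p (0.11) and miR-378b (0.12), where the median of 540 miRNAs was 0.373. The level of miR-378b was low, between 0.341 and 1.43 CPM. Nearest to miR-9-3p were miR-140-5p (0.069), miR-21a-5p (0.073) and miR-340-5p (0.082), where the median was 0.286. Its own sister arm miR-9-5p came 111 in that order (0.197), and miR-9b-5p came 45 (0.14).

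**Figure D4:**
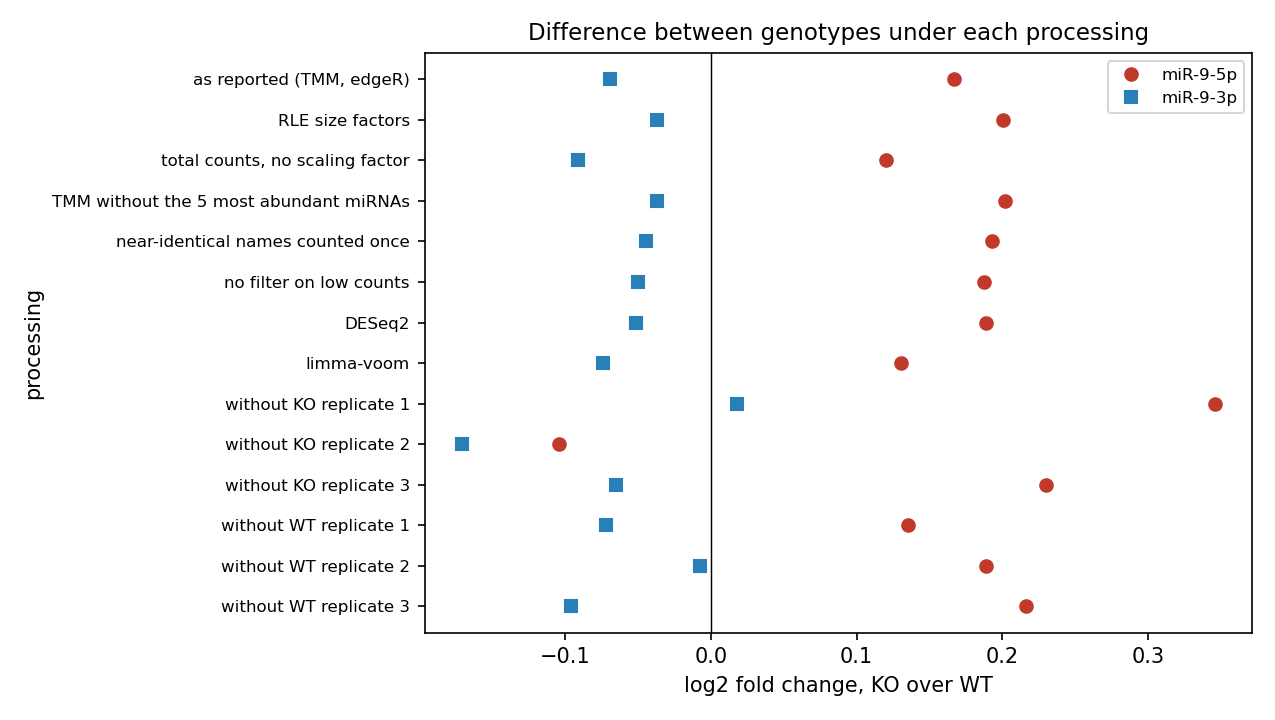
Log2 fold change of KO over WT (x axis) for miR-9-5p (circles) and miR-9-3p (squares) under each processing (y axis). Values of miR-9-5p are positive except without KO replicate 2 (-0.10), and values of miR-9-3p are negative except without KO replicate 1 (0.02).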

How the data were processed

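Total RNA from cortices was made into small RNA libraries by adaptor ligation, PCR and gel size selection, per the labels' protocols. The submitters' processing notes name Bowtie, DESeq2 and the build mm10. How reads were trimmed, how mismatches and multi-mapping reads were handled and whether strand was used is not stated. The deposited table holds raw read counts per mature miRNA, per the file headers. The deposited TPM values equal counts scaled by the column total (largest deviation 4.9e-10) and were not used further. No column lacked a sample. Columns were matched to samples by the number in the library name, because the column names carry an extra letter S that the sample titles lack.

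Counts were fitted in R 4.3.3 with edgeR 4.0.16 (filterByExpr minimum count 10, leaving 541 of 1182 names, TMM, robust quasi-likelihood test, Benjamini-Hochberg adjustment, threshold 0.05). Arm ratios were fitted with limma 3.58.1. DESeq2 1.42.0 and limma-voom were alternatives. The procedures were tested on simulated data. There edgeR recovered 71.9% of 2-fold and 100% of 4-fold changes, and 3.59% of its calls were false. Both simulated genotypes had the same spread, so the wider KO spread of the real libraries was not covered. All simulated miRNAs also shared the same dispersion (spread beyond counting error), unlike the real miRNAs. The recovered and false percentages hold for these settings only. Sequences and positions are from RefSeq on GRCm38.p6, and host genes from GENCODE M21. Named miRNAs were the 3 members, the 3 nearest in pattern, abundant arm pairs, opposite-strand pairs with at least 200 reads, and abundant list members. The members and lists were chosen with earlier results of these data known. Replicates follow accession order, and the labels tie no library to a separate animal, so p-values measure the spread between these libraries. Reads are not unique molecules, and counting intervals cover counting error only. No litter, day or batch is given.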

Additional observations from a re-analysis of the deposited data

How the results depend on the processing

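No miR-9 level or arm ratio crossed the threshold under any alternative run. The share difference could not cross it, because its exact permutation p cannot go below 0.1. Without KO replicate 1 that permutation p was 0.1, the lowest possible. For miR-9-5p the log2 fold change kept its sign in 12 of 13 alternatives, with values from -0.10 (without KO replicate 2) to 0.35 (without KO replicate 1) and edgeR, DESeq2 or limma-voom adjusted p-values from 0.409 to 0.999. For miR-9b-3p it kept its sign in 11 of 12, with the same range and the same exception (-0.10). For miR-9-3p it kept its sign in 12 of 13, from -0.17 (without KO replicate 2) to 0.018 (without KO replicate 1). The arm ratio difference stayed positive in 8 of 8 alternatives (0.06 to 0.31), and the share difference in 7 of 7 (1.20 to 6.37 percentage points). The count of called miRNAs ranged from 0 to 18, with 18 of 560 tested found without KO replicate 3, and the cause was not tested. The number at an unadjusted p under 0.05 ranged from 14 to 97. Chosen after seeing the data, the nearest miRNAs shared as few as 1 of 3 names for miR-9-5p and 0 of 3 for miR-9-3p when a library was left out, so that order is not stable. The 3 names of miR-9-5p include miR-9b-3p, nearly the same measurement, so its higher minimum does not make miR-9-5p the steadier arm. The neuron-enriched list had 2 members higher without KO replicate 3, against 7 with all libraries. No paired analysis was possible because the labels give no replicate numbers shared by the genotypes. Depth did not limit the members, whose lowest count was 11774 reads.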
